A study of Mus musculus with 2 samples.

Results

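The genes that encode the enzymes adding and removing methyl and acetyl groups on histone lysines were examined for accessible chromatin in mouse frontal cortex. Members were the protein-coding genes of GENCODE M21 on the 19 autosomes whose symbol is Kdm, Kmt, Kat, Hdac or Sirt followed by a number and at most 1 letter. The rule took 47 of 20807 autosomal protein-coding genes: 15 Kdm, 8 Kmt, 8 Kat, 9 Hdac and 7 Sirt genes. It used the symbol and position of a gene and no measured value. The X-linked Kdm5c, Kdm6a, Hdac6 and Hdac8 and the Y-linked Kdm5d fall outside it.

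The data are DNase-seq libraries of frontal cortex from female B6CASTF1/J mice (an F1 hybrid of the B6 and CAST strains) at 36 days of age. DNase I cuts DNA that is not covered by nucleosomes, regions rich in cuts are called as peaks, and short protected stretches inside them are called as footprints. Both libraries belong to 1 untreated group, as biological replicates 1 and 2, so the design holds no contrast between conditions and no test was possible. The replicates carry separate tissue records and 1 donor label, the sources do not say if separate animals were used, and the spread between them may be technical.

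Lysine methyltransferases (Kmt) and acetyltransferases (Kat) place marks on histone tails. Lysine demethylases (Kdm), zinc-dependent deacetylases (Hdac) and NAD-dependent sirtuins (Sirt) take them off. Most of these enzymes work in large complexes that are present in nearly all cell types, while the class IIa deacetylases shuttle between nucleus and cytoplasm in response to calcium signalling in neurons and muscle. Mutations in several of the genes, among them KMT2D, KMT2A and KDM6B, cause human disorders of brain development.

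Replicate 1 had 29700 peaks and 112826 footprints, and replicate 2 had 66512 peaks and 250543 footprints, so counts are given for each replicate. The signal of a peak is the authors' read-depth normalized density; all signals of a list were whole multiples of 1 step within 0.05 steps (0.0118 in replicate 1 and 0.00971 in replicate 2), which would make replicate 2 the deeper library by 1.21-fold if a step stands for 1 tag. Promoter peaks in both replicates were found at 4 of 7 neuronal markers (Snap25, Syt1, Camk2a and Tbr1). They were also found at 2 of 3 astrocyte markers and 1 of 3 markers of the oligodendrocyte lineage. Microglia, vascular cells, liver and skeletal muscle had 0 of 3 markers each. The background over all autosomal protein-coding genes was 52.0%, so counts over lists this short do not check the tissue. Rbfox3, also a neuronal marker, had promoter peaks in replicate 2 alone. The defining neuronal markers Slc17a7 and Gad1 had none in the shorter list of either replicate. The share of cells behind a peak in bulk tissue and the degree of opening per cell cannot be told apart.

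Stretches of promoter that lay in footprints of both replicates are shown first, for Kdm1a (the flavin-dependent demethylase LSD1) and 4 of the members with the highest promoter ranks, to show where the protected bases lie. Sequences are from RefSeq promoter entries (GRCm38.p6, the build mm10 of the files), run 5′ to 3′ in the direction of the gene, and end before any annotated exon. Capitals mark bases inside footprints of both replicates.
Hdac4, internal start, chr1:92180342-92180496, minus strand: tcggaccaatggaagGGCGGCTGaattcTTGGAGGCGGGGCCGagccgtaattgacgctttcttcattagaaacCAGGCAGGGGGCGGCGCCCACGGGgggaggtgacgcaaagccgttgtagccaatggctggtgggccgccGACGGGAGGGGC
Kdm1a, chr4:136602724-136602875, minus strand: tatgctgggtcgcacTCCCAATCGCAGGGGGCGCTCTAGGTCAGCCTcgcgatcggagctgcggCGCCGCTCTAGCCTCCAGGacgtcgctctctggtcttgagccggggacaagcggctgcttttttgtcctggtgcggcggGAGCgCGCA
Kdm3a, chr6:71633062-71633167, minus strand: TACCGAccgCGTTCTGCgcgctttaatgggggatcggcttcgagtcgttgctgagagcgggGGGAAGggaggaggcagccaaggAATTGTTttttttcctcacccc
Kmt2a, chr9:44881334-44881539, minus strand: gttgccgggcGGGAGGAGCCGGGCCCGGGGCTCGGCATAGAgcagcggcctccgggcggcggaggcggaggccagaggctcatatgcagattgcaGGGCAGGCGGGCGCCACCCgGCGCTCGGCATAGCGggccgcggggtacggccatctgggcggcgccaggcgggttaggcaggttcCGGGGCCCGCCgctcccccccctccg
Sirt2, chr7:28766641-28766734, plus strand: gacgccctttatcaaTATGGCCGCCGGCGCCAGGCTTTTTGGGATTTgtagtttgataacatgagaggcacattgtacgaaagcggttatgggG
Of the 47 members, 36 had 1 or more RefSeq promoter entries of 300 bases, 55 entries in all. In these entries 5.88% of the bases lay in footprints of both replicates. The members' entries held a median of 21 CpG, against 14 over the 19174 entries of all autosomal protein-coding genes, and a median CpG observed over expected ratio of 0.79 against 0.60. The letters GGGCGG, the core of the SP/KLF motif, were searched on both strands and occurred in 36 of 55 entries (65.5%) against 48.3% of all entries, and 12 of the 110 matches lay in footprints of both replicates. The Hdac4 stretch above holds such a match in its capitals. The NRF1 motif (GCGC, any base, TGCGC) occurred in 4 of 55 entries (7.27%) against 6.74%, and the ETS letters CCGGAAGT in 5 (9.09%) against 5.45%. None of the 55 entries held the YY1 letters AAGATGGC, which 3.09% of all entries hold, or the CREB letters TGACGTCA, which 2.36% hold. A match is a description of the letters and says nothing of what is bound.

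Nearly all members had an accessible promoter. A peak lay within 500 bp of an annotated start in 42 members in replicate 1 (background over all autosomal protein-coding genes 52.2%) and in 45 in replicate 2 (61.2%). It was present in both replicates in 42 members, 89.4%, against a background of 52.0%. In the authors' longer peak lists the counts were 44 in replicate 1 (background 59.5%), 46 in replicate 2 (65.7%) and 44 in both (93.6%, against 59.2%). In replicate 2 more than 1 promoter peak was found in 26 members (55.3%) against 27.2%. Another protein-coding gene started within the start windows of 7 members (14.9%) against 13.5%, so shared starts were about as common as in other genes. The members have more annotated start sequence than other genes, with a median of 4025 bp within the start windows against 2003 bp, and counting the 5′ end of the gene record alone gave 37 of 47 (78.7%) against 46.8%.

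By family, a promoter peak in both replicates was found in 14 of 15 Kdm, 7 of 8 Kmt, 6 of 8 Kat, 8 of 9 Hdac and 7 of 7 Sirt genes. The families thus differ by at most 2 genes from completeness, too few to order them. The same count over 35 other autosomal chromatin genes, among them the Polycomb subunits Ezh2, Eed and Suz12, the acetyltransferases Crebbp and Ep300 and the scaffolds of deacetylase complexes, was 33 (94.3%). The exceptions there were the methyltransferase gene Setd1b, with peaks in replicate 2 alone, and the NuRD subunit gene Mta1, with none.

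The highest promoter peak of a member was ranked as a percentile, the share of peaks in the same list with a lower signal. Its median was 85.3 in replicate 1 (42 members with a peak) and 91.9 in replicate 2 (45 members), beside 78.4 and 88.8 over all genes with a promoter peak. These medians leave out the members without a peak, and a gene with more start windows has more chances of a high peak. Family medians in replicates 1 and 2 were 87.5 and 93.8 for Kdm, 85.3 and 93.2 for Kmt, 94.2 and 89.0 for Kat, 80.5 and 89.6 for Hdac, and 67.1 and 84.8 for Sirt. The Kat medians rest on different genes, 6 in replicate 1 and 8 in replicate 2, where Kat2a (79.9) and Kat2b (54.0) enter. The Sirt family had the lowest median in both replicates, and its members still spanned 49.8 to 97.2 in replicate 1, which overlaps the range of each other family. The promoter signal was higher in replicate 2 in 42 of 42 members, by a median of 0.76 on the log2 scale. The median was 0.79 over the 10816 genes with a promoter peak in both replicates, so the members moved with promoter peaks in general. Over all peaks of the lists the median signal was 1.34 in replicate 1 and 1.17 in replicate 2. The widest gap was at Kdm4b, a demethylase of histone H3 lysine 9 (signal 3.09 and 7.71, 1.32 on the log2 scale), and the narrowest at Kdm5a, a demethylase of H3 lysine 4 (3.83 and 4.88, 0.35), at a start shared with Ccdc77.

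**Figure D1:**
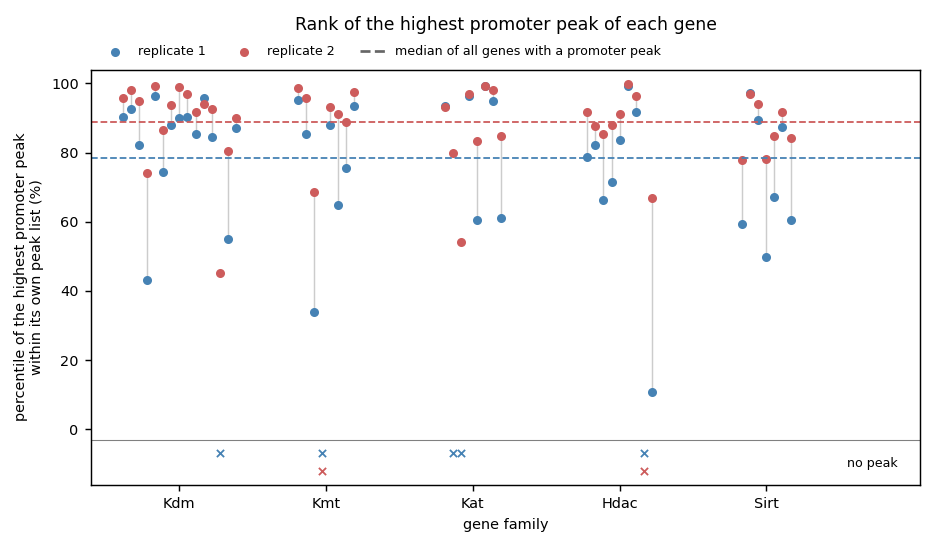
Percentile of the highest promoter peak within its own peak list (vertical axis, %) for each gene by family. Points joined by a line are replicates 1 and 2 of a gene, and crosses are genes without a promoter peak. Dashed lines are the medians of all genes with one (78.4 and 88.8). Most Kdm genes lie above these lines. Hdac9, Kmt2c and Kdm2b lie far below, as do Kdm6b and Kat2b, which have a point in replicate 2 alone.

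The highest ranks were at acetyltransferase, deacetylase and demethylase genes. Hdac4 (chr1:91928779-92195699), a class IIa deacetylase, had promoter signals of 5.14 (replicate 1) and 9.40 (replicate 2), percentiles 99.2 and 99.7. Kat6b (chr14:21481434-21672478), a MYST acetyltransferase of histone H3, had 5.25 and 8.19, percentiles 99.3 and 99.3. Kdm3a, a demethylase of H3 lysine 9, had 3.92 and 8.08, percentiles 96.2 and 99.2. These promoters rank among the strongest peaks of the whole tissue list in both replicates. Sirt2, a cytoplasmic tubulin and histone deacetylase abundant in myelinating cells, had 4.16 and 6.16, percentiles 97.2 and 97.1. Its start window also holds the start of Nfkbib, so the peak cannot be assigned to 1 of the genes. Kmt2a, the H3 lysine 4 methyltransferase MLL1, had 3.71 and 7.22, percentiles 95.1 and 98.6.

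The lowest ranks among members with a peak in both replicates were at the class IIa gene Hdac9, at Kmt2c, Kdm2b and Sirt4. Hdac9 (chr12:34047580-34917095) had 0.73 and 1.67, percentiles 10.8 and 66.9, with the highest peak at different starts in the replicates. Kmt2c, an H3 lysine 4 methyltransferase of enhancers, had 1.06 and 1.74, percentiles 33.8 and 68.5. Kdm2b, a CpG island binding demethylase of a Polycomb complex, had 1.21 and 2.02, percentiles 43.1 and 74.2, also at different starts. The mitochondrial sirtuin gene Sirt4 followed with 1.34 and 2.28, percentiles 49.8 and 78.0. Within 500 bp of a start, Kmt2a thus stood near the upper end and Kmt2c near the lower end of the ranking. There, the higher value of Kmt2c lay below the lower value of Kmt2a. A shared peak just outside the Kmt2c start window, with its replicate 1 midpoint at -817 bp, was higher. Its signals were 2.75 and 5.65, percentiles 86.0 and 96.1. A start of the neighbouring 4831440E17Rik lies within 500 bp of this peak. The ranking was not repeated with wider windows, so the low rank of Kmt2c holds for the 500 bp window only.

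Between these extremes lay most genes of each role. The class I deacetylase genes had promoter signals of 2.31 and 4.22 (Hdac1), 1.98 and 3.45 (Hdac2) and 2.60 and 4.08 (Hdac3, at a start shared with Rell2), a range narrower than the gap between the replicates of each gene. Hdac10 (2.52 and 3.41) and Hdac11 (1.79 and 3.03), of classes IIb and IV, were close to them. Among the MYST acetyltransferases Kat5, the catalytic subunit of the NuA4 complex, had 3.95 and 6.10 and Kat7, a partner of replication licensing, had 3.69 and 6.95. Kat6a, the paralog of Kat6b, had 1.60 and 2.79 and Kat8, which acetylates H4 lysine 16, had 1.61 and 2.93. Kat5, Kat6b and Kat7 thus had higher values than Kat6a and Kat8 in each replicate. This split was made after the values were seen and does not show separate classes. Kat14, a subunit of the ATAC complex, had 3.45 and 4.65 at a start shared with Pet117.

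The demethylases of the flavin-dependent type had 3.11 and 5.48 (Kdm1a) and 3.33 and 6.84 (Kdm1b, at a start shared with Tpmt). Of the JmjC demethylases, Kdm4a had 2.90 and 4.79, Kdm4d 2.70 and 4.25 at a start shared with Cwc15, and Kdm3b, the paralog of Kdm3a, 2.11 and 3.23. Kdm3a was thus higher than Kdm3b in each replicate, while the gap between the replicates of Kdm3a itself was wider than that of Kdm3b. Kdm8 had 2.83 and 3.81, and Kdm7a, an H3 lysine 9 and lysine 27 demethylase, 1.46 and 2.48. Among methyltransferases of H4 lysine 20, Kmt5c had 3.48 and 6.46, above Kmt5a (1.73 and 4.09) and Kmt5b (2.16 and 3.61) in each replicate. Kmt2b had 2.70 and 5.56 and Kmt2e 2.90 and 4.62, between Kmt2a and Kmt2c.

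The other sirtuin genes had lower promoter signals than Sirt2 in each replicate. The nuclear Sirt6 had 2.85 and 4.25 and the nucleolar Sirt7 1.60 and 2.86. Of the mitochondrial sirtuins Sirt3, the main mitochondrial deacetylase, had 3.03 and 4.84 at a start shared with Psmd13, and Sirt5, a desuccinylase, had 1.81 and 2.95. The 2 highest sirtuin promoters, Sirt2 and Sirt3, were therefore those with a start of another protein-coding gene in the same window; the contribution of the neighbour was not tested.

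The 5 members without a promoter peak in at least 1 replicate were Kmt2d, Hdac7, Kdm6b, Kat2a and Kat2b. Kmt2d (chr15:98831669-98871204), the second H3 lysine 4 methyltransferase of enhancers, had no promoter peak in either list of either replicate and no promoter footprint. The lowest FDR in its start windows was 0.00717 in replicate 2, where 24 bp had an FDR of at most 0.05. A strong shared peak had its midpoint at -936 bp from its nearest start, upstream, at chr15:98871961-98872320, with signals of 3.70 and 4.98, and starts of the neighbouring 5730414N17Rik and Gm49437 lie within 500 bp of this peak.

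Hdac7 (chr15:97792664-97844502), the class IIa deacetylase known from thymocytes and endothelium, had no promoter peak in the shorter lists and 2 in the longer list of replicate 2. In its gene window, the gene body extended by 10 kb at both ends, replicate 1 had 1 peak and replicate 2 had 15, of which 0 and 13 were distal, that is, more than 500 bp from every annotated start of any gene. The 1 shared peak lay at the start of the neighbouring Slc48a1. The 4 intronic distal peaks of replicate 2 had signals of 1.31 to 2.94, and 0 of them overlapped a peak of replicate 1.

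Kdm6b (chr11:69398508-69413675), the H3 lysine 27 demethylase JMJD3, had the widest gap in window peaks between the replicates in the shorter lists. It had 3 window peaks in replicate 1 and 20 in replicate 2, and 1 and 15 of these were distal. Its promoter peak was present in replicate 2 alone, with a signal of 1.09, percentile 45.2. A peak in an intron at chr11:69411181-69411358 was far higher than this promoter peak, with signals of 2.85 and 4.66 and 4 footprints in replicate 1. In replicate 2 a row of upstream peaks with midpoints from -3965 to -6023 bp of the nearest start reached a signal of 4.09. In the longer list the window held 10 and 23 peaks, and 9 were shared, so the replicates differed less there than in the shorter list.

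Both acetyltransferase genes of the GNAT type had promoter peaks in replicate 2 alone, while the 5 of the MYST type (Kat5, Kat6a, Kat6b, Kat7 and Kat8) had them in both. Kat2a (chr11:100704746-100712465), which encodes GCN5, had a replicate 2 signal of 2.44, percentile 79.9, as its only promoter peak in the shorter lists. Kat2b (chr17:53566861-53672720), which encodes PCAF, had a replicate 2 signal of 1.27, percentile 54.0. Its window held 0 peaks in replicate 1 and 11 in replicate 2, and 5 and 13 in the longer lists. In the longer lists Kat2a and Kat2b both had a promoter peak in each replicate, so all 8 Kat genes did and the contrast with the MYST type was absent there. Replicate 2 had 66512 peaks against 29700 in replicate 1, and whether its depth or its tissue sets these genes apart was not tested.

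**Figure D2:**
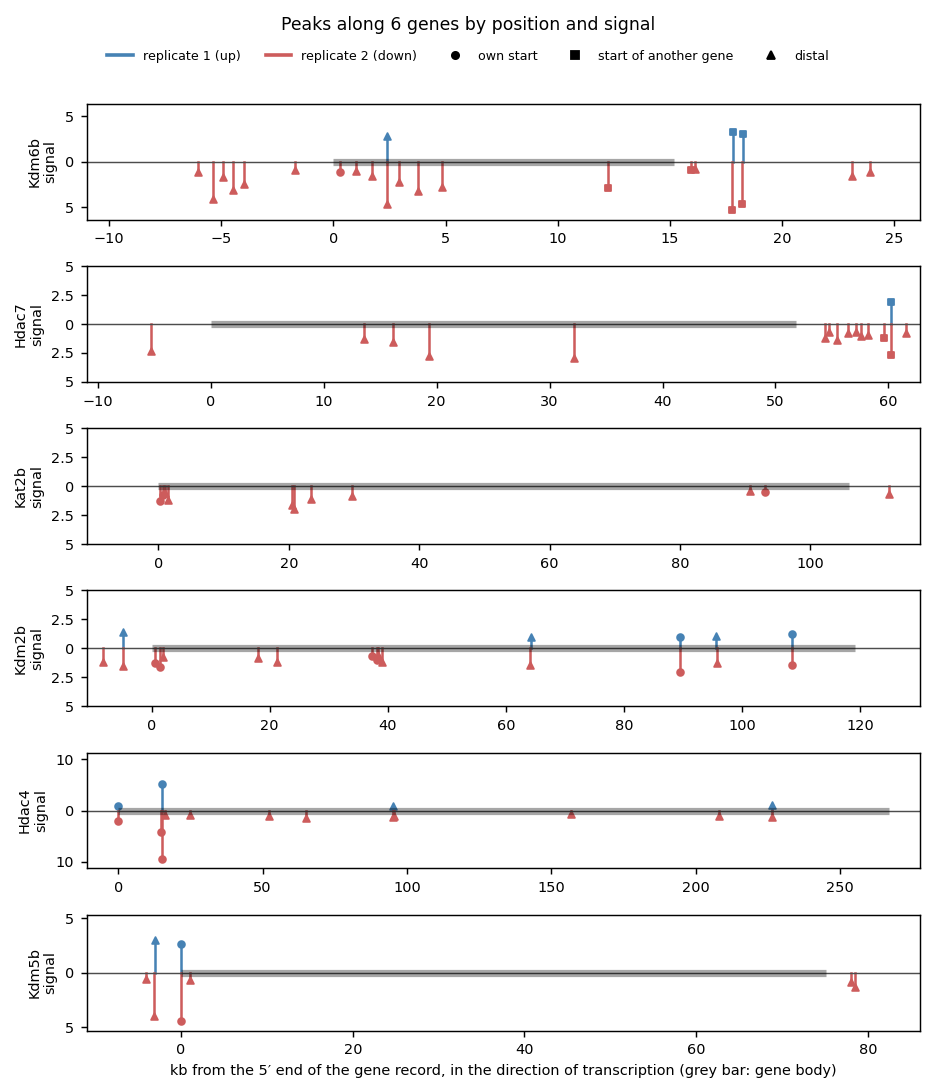
Peaks along Kdm6b, Hdac7, Kat2b, Kdm2b, Hdac4 and Kdm5b by distance in kb from the 5′ end of the gene record (horizontal axis) and signal (vertical axis), with replicate 1 drawn up and replicate 2 down, and the gene body in grey. Kdm6b, Hdac7 and Kat2b have 3, 1 and 0 peaks in replicate 1 against 20, 15 and 11 in replicate 2; the main peak of Hdac4 lies inside the gene and that of Kdm5b has a neighbour upstream.

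Some members had an accessible start inside the gene. The members have 183 separate start windows, of which 49 held a peak in replicate 1, 58 in replicate 2 and 48 in both. Of the 47 windows at a 5′ end 37 were accessible in both replicates, against 11 of 136 windows further downstream. Single windows were open in both replicates in 37 members, more than 1 window in 5 members (Hdac4, Hdac5, Hdac11, Kdm2a and Kdm2b), and no window in the remaining 5. Over all genes the 5′ window was open in both replicates in 46.8%. The other window counts were not made over all genes, so whether internal open starts are more common in the members was not tested.

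At Hdac4 the 5′ start had signals of 0.85 and 1.98, and a start 15.4 kb downstream had 5.14 and 9.40. The internal start, whose upstream sequence is printed above, was thus the higher in both replicates, and its lower value exceeded the higher value of the 5′ start. At Kat6b the 5′ window had no peak and a start 18.9 kb inside the gene carried 5.25 and 8.19. Kdm4c, an H3 lysine 9 demethylase, had its peak 9.44 kb inside the gene (3.10 and 6.13) and Sirt1, the nuclear sirtuin, 42.7 kb inside (1.57 and 2.26). At Sirt1 the 5′ window held peaks in replicate 2 alone, with a signal of 0.57. The 5′ end of a gene record is the outermost annotated start, so a low value there describes that transcript start and not the gene.

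The paralogs Kdm2a and Kdm2b both encode JmjC demethylases that bind CpG islands, and both had peaks at internal starts. Kdm2a had open windows in both replicates at its 5′ end (0.92 and 1.17), at 1.28 kb (2.52 and 4.42) and at 64.3 kb (2.44 and 5.15). Kdm2b had them at 89.5 kb (0.99 and 2.02) and 108.7 kb (1.21 and 1.45), while its 5′ window was called in replicate 2 alone (1.62). The signals of the Kdm2a windows at 1.28 kb and 64.3 kb exceeded those of the Kdm2b windows in each replicate. Hdac5, a class IIa deacetylase, had 2 strong starts, at the 5′ end (3.25 and 5.81) and 11.2 kb inside (2.30 and 5.52). Hdac9 had its shared start peak 10.1 kb inside the gene (0.73 and 1.03) and a second in replicate 2 alone 388.5 kb inside (1.67).

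**Figure D3:**
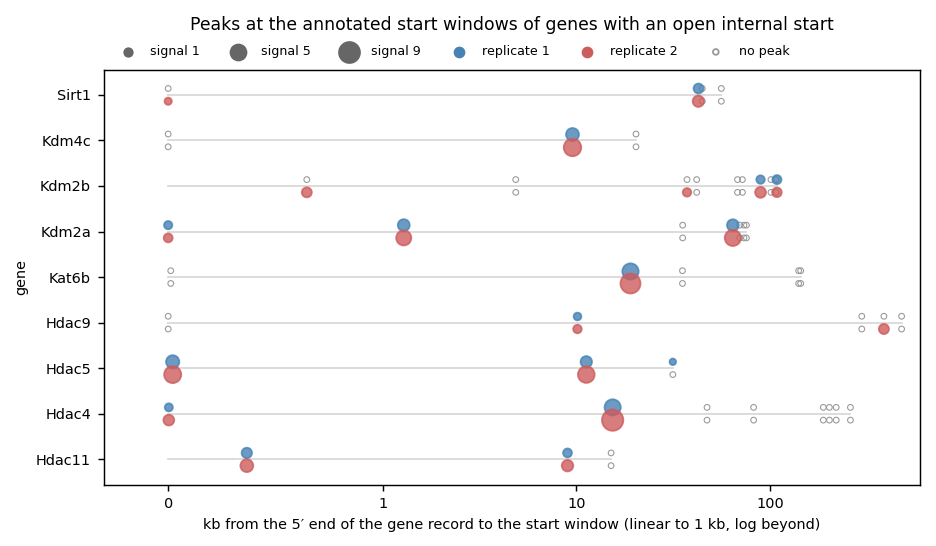
Peaks at the annotated start windows of the 9 genes with an internal start open in both replicates, by distance in kb from the 5′ end (horizontal axis, linear to 1 kb and logarithmic beyond). Filled circles have an area that grows with signal and open circles are windows without a peak. All genes shown but Hdac5 and Hdac11 have their largest circles inside the gene.

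Footprints lay within 500 bp of a start in 43 members in replicate 1 (background 56.7%) and in 46 in replicate 2 (63.6%). They were present in both replicates in 43 members (91.5%) against 56.3% of all genes, and footprints that overlapped between the replicates in 40 (85.1%) against 51.5%. Members had a median of 6 promoter footprints in replicate 1 and 9 in replicate 2, against 2 and 4 over all genes. Per kb of promoter peak the medians were 12.7 and 13.9 for the members with a peak, and 12.5 and 13.9 for all genes with one. Footprints in members with a promoter peak were thus about as dense as in other genes with one, while the counts per gene also include genes without a peak. The most footprints were at Kmt5b, an H4 lysine 20 methyltransferase (16 and 19), at Kdm2b (11 and 23), Kdm2a (16 and 16), Kat6b (9 and 19) and Kmt5c, the paralog of Kmt5b (11 and 15). Of the replicate 1 footprints, 13 of 16 at Kdm2a and 12 of 16 at Kmt5b overlapped one of replicate 2, against 5 of 11 at Kdm2b.

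Counted over the whole gene window, promoter peaks included, the members had a median of 3 peaks in replicate 1 and 4 in replicate 2. The median of shared peaks was 3. Over all genes these medians were 1, 2 and 1. For distal peaks alone the medians were 0 and 1, and 0 for shared ones, in the members and over all genes alike. The members' windows held 138 and 261 peaks in all, and 127 of the 138 replicate 1 peaks were shared. Summed over the windows of all genes, 31917 of 34759 replicate 1 peaks were shared, a like share. All members but Kat2b, 46 of 47 (97.9%), had a peak in both replicates, against 69.1%. The members are long genes, with a median span of 39.5 kb against 17.6 kb. A distal peak was found in 16 members in replicate 1 (34.0%, background 32.2%) and in 32 in replicate 2 (68.1%, background 57.6%). It was shared in 16 members (34.0%), close to the background of 31.0%. Distal peaks numbered 24 and 119, or 0.55 and 2.71 per 100 kb of window, against 0.77 and 2.33 over all genes. Of the 127 shared replicate 1 peaks of the members 24 were distal, against 10157 of 31917 over all genes. In both sets the accessible chromatin that both replicates hold was thus mostly at annotated starts, of the gene itself or of a neighbour.

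The members with the most shared peaks were, in the Kdm family, Kdm2b with 5 and Kdm2a with 4, in the Kmt family Kmt2a and Kmt2b with 5 each and Kmt2c and Kmt5b with 4 each, and in the Kat family Kat6b and Kat8 with 3 each. Hdac3, Hdac4, Hdac5 and Hdac9 led the Hdac family with 4 each, and Sirt1 and Sirt3 led the Sirt family with 4 each. These lists hold compact genes with close neighbours as well as long genes. At Kmt2b, the H3 lysine 4 methyltransferase MLL2, 2 of the peaks were at own starts and 0 were distal. At Kmt2a 2 were distal.

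**Figure D4:**
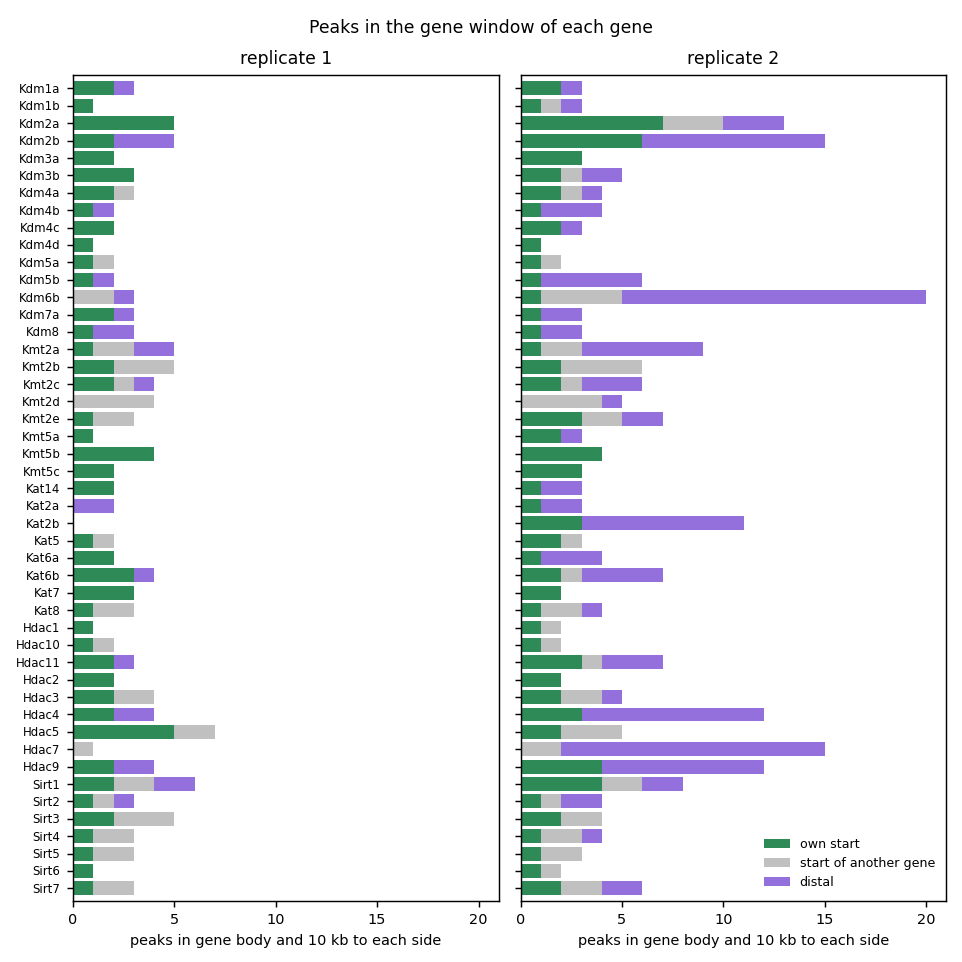
Number of peaks per gene window, the gene body extended by 10 kb at both ends (horizontal axis) for each of the 47 genes, split into peaks at own starts, at starts of other genes and distal peaks, with replicate 1 on the left and replicate 2 on the right. Replicate 1 holds at most 7 peaks per gene, and the longest bars of replicate 2, Kdm6b with 20, Hdac7 with 15 and Kdm2b with 15, are mostly distal.

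Within the Hdac family the classes are given side by side. The class I genes Hdac1, Hdac2 and Hdac3, the catalytic subunits of the nuclear corepressor complexes, all had promoter peaks in both replicates, and their windows held 0 and 1 distal peaks in 133 kb. The class IIa genes Hdac4, Hdac5, Hdac7 and Hdac9 had promoter peaks in 3 of 4, and held 4 and 30 distal peaks in 1304 kb. Per 100 kb this was 0 and 0.75 for class I and 0.31 and 2.30 for class IIa, and all genes had 0.77 and 2.33. The class I windows are too short to tell these densities apart. Within class IIa the replicate 2 distal peaks were uneven, with 13 at Hdac7, 9 at Hdac4, 8 at Hdac9, by far the longest gene, and 0 at Hdac5. Among the sirtuins, the 3 of mitochondria (Sirt3, Sirt4 and Sirt5) held 0 and 1 distal peaks and the other 4 held 3 and 6.

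Of the 24 distal shared peaks, 14 lay in introns, 6 upstream and 4 downstream, and 4 had their midpoint within 1500 bp of a start of the same gene. Their signal in replicate 1 had a median of 1.12 and a median percentile of 37.4, so most are weak peaks. The highest in replicate 1 was upstream of Kdm5b, an H3 lysine 4 demethylase, with its midpoint at -3091 bp from the nearest start, at chr1:134556941-134557220, with signals of 3.05 and 3.99. In replicate 2 the intronic Kdm6b peak was higher (4.66). The Kdm5b peak was higher than the promoter peak of Kdm5b itself in replicate 1 (2.65) and lower in replicate 2 (4.44). Kdm2b had 3 distal shared peaks, and Hdac4, Hdac9, Kat2a, Kdm8, Kmt2a and Sirt1 had 2 each.

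Motifs inside footprints were searched in the 18 of these 24 peaks whose sequence was read, and the others were not searched. The core of the CTCF motif is CCA, AG and GG with 2 free bases between each. In 5 of the 18 peaks, at Kdm2b, Sirt2, Kdm8 and Hdac9, at least 50% of its bases lay inside footprints of both replicates. This form of the motif was chosen after the data were seen; a longer form that contains it, with a C after the GG, did so in 2 peaks. The same footprint count over the distal peaks of all genes was not made. Searched on both strands in 200 bases at the peak centre, the shorter form occurred in 10 of the 24 peaks (41.7%), against 30.3% of 13619 distal replicate 1 peaks of all genes. The longer form occurred in 6 (25.0%) against 23.3%. Those 5 peaks and that of Kdm5b, which was also picked after its values were seen, are printed here on the plus strand of mm10 with the capitals as above.
Kdm5b upstream, chr1:134556941-134557220: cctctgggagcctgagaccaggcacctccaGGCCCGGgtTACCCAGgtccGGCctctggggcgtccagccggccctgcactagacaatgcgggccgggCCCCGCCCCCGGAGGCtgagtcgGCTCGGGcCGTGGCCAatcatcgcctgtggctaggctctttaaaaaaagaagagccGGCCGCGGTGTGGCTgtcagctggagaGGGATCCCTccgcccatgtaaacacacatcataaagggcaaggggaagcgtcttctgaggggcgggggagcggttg
Kdm2b intron, chr5:122894095-122894284: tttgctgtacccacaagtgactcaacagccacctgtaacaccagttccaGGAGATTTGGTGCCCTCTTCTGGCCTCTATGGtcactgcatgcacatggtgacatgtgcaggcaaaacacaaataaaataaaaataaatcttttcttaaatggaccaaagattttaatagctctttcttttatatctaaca
Kdm2b intron, chr5:122925591-122925740: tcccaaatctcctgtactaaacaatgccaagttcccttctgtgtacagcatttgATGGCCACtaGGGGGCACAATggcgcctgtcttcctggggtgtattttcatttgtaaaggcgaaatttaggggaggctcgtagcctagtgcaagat
Sirt2 intron, chr7:28780141-28780320: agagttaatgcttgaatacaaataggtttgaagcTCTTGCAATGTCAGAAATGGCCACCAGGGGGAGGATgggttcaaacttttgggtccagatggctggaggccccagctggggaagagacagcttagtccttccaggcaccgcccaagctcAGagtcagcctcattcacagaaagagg
Kdm8 downstream, chr7:125470055-125470240: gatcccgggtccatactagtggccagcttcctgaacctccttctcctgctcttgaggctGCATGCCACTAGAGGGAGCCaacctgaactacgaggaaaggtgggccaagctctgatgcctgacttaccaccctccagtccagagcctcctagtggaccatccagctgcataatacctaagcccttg
Hdac9 intron, chr12:34664841-34665040: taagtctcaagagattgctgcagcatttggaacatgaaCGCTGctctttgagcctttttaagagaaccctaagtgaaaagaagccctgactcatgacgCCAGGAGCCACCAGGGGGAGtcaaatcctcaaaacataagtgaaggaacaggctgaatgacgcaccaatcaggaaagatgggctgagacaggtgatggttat
In the 5 peaks with CTCF letters the capitals form 1 or 2 runs, while in the Kdm5b peak they form 8 short runs spread over the peak and include a GGGCGG match, read on the opposite strand. The Sirt2 intron peak had signals of 2.18 and 3.55 and the Hdac9 peak 1.85 and 1.98. The other 3 lay between 1.01 and 1.05 in replicate 1 and between 1.18 and 1.43 in replicate 2.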

How the data were processed

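Peak lists, footprints and cleavage tables were deposited by the authors for each library on mm10, per the labels. The sources used here do not give the callers and thresholds. The authors' signal for each peak is a density normalized for read depth. The p-value column of the cleavage table deposited by the authors is an FDR up to 0.05, and that of the footprint list is 0.01 in every row and ranks nothing. Of the 2 peak lists per library, the one with fewer peaks was the main list. Start windows were 500 bp to each side of every GENCODE M21 start of a gene, gene windows 10 kb to each side, and peaks or footprints were shared when they overlapped by at least 1 bp. Promoter sequences came from RefSeq and distal ones from GRCm38; all 55 member promoter entries were identical to that genome. Overlap counts were made with pandas 2.3.3 and numpy 2.4.6 in Python 3.11.15, sequences read with pysam 0.24.0, and the counting code checked on simulated data. CAST alleles differ from the reference and were not analysed here. With 1 group of 2 replicates no test was run. Counts stand beside the same count over all genes where that count was made.

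Members to describe were those without a promoter peak, those with the most shared or distal peaks or footprints, and those with the highest and lowest percentiles. The members and lists were chosen with earlier results of these data known. Alternatives were other windows, the longer list, the 50% of peaks with the highest signal, stricter overlap and leaving out a replicate; leaving out members that share a start was added after seeing the data.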

Additional observations from a re-analysis of the deposited data

How the results depend on the processing

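The count of members with a promoter peak in both replicates was 37 to 45 under all the settings run on the 47 members (42 as reported; 42 and 45 from a single replicate), and 35 of 40 without the members that share a start with another protein-coding gene, where the background was 46.8%. The count with a promoter footprint was 38 to 46. Family counts of promoter peaks moved by at most 2 genes. The median of 3 shared peaks per gene window became 1 for the gene body alone, 5 with 50 kb to each side, 4 in the longer list, 2 for the 50% of peaks with the highest signal and 2 with an overlap of at least 50%; it was 3 to 4 from a single replicate. The median of 0 distal shared peaks became 1 with 50 kb to each side and 1 in the longer list, and 0 to 1 from a single replicate. The longer list gave 11.2 footprints per kb of promoter peak in place of 13.3, and a median percentile of 93.7 in place of 88.6 (means of both replicates); from single replicates these were 12.7 to 13.9 and 85.3 to 91.9. The library totals were not analysed here, so differences in depth between the replicates were not removed. No paired analysis was possible because there is 1 group and no test.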
